A study of Tursiops truncatus with 76 samples.

Results

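Whole blood from bottlenose dolphins (Tursiops truncatus) of Barataria Bay (BAR), Louisiana, was compared by the lung score that each animal received at the health assessment where it was bled. The score came from an ultrasound examination and had the classes Normal, Mild, Moderate and Severe. It was matched to each sample by field ID and date, and the 3 BAR samples with no score were left out. Of 76 samples in the series and 60 from BAR, 57 had a score, with 6 Normal, 32 Mild, 13 Moderate and 6 Severe. The main comparison set the 19 Moderate or Severe samples against the 38 Normal or Mild samples, and the order of all 4 classes was examined beside it.

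All 57 samples came from free-ranging animals of a bay that received oil from the Deepwater Horizon spill, and no animal of the reference population enters the comparison. By the study's birth cohorts, 16 Moderate or Severe and 28 Normal or Mild samples came from animals born before the spill, among them all 6 Severe samples. Animals born after it gave 2 and 7 samples, and the cohort could not be determined for 1 and 3. The remaining samples of the series were from the Sarasota Bay reference population or had no score and were not used here. The 57 samples came from 52 animals, of which 5 were sampled on 2 occasions. Males made up 4 of 19 Moderate or Severe samples and 14 of 38 Normal or Mild samples, and the 6 Severe samples were all from females, of 5 animals. Moderate or Severe samples came from 9 adults and 10 subadults, and Normal or Mild samples from 13 adults, 21 subadults and 4 calves. Pregnancy was recorded in 8 of the 15 Moderate or Severe samples from females and 12 of the 24 Normal or Mild ones. It could not be determined in 2 and 3 of them. A separate clinical call of inflammation applied to 6 of 19 Moderate or Severe samples and 6 of 38 Normal or Mild samples. Sex, inflammation and birth cohort therefore moved with the lung class, as did the campaign. The 5 collection campaigns contributed 5 Moderate or Severe and 7 Normal or Mild samples in June 2013, 2 and 10 in June 2014, 3 and 8 in June 2017, 3 and 7 in September 2017, and 6 and 6 in July 2018.

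Ultrasound of the lung detects changes at its surface, among them fluid or thickening between the air spaces and consolidated tissue, so the score describes an organ that was not itself sequenced. Whole blood carries RNA of neutrophils, eosinophils, monocytes, lymphocytes, platelets and immature red cells. In pneumonia and in chronic lung disease of other mammals, granulocytes and monocytes are drawn to the lung by chemokines, and eicosanoids made by white cells and platelets act on airways and vessels. In whole blood a difference in the amount of a transcript can come from fewer cells of a type or from less RNA per cell, and these cannot be told apart here.

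Values were FPKM, counts of sequenced fragments scaled to transcript length and library size, at 24094 loci. The test was limma on log2(FPKM + 1) over the 11565 loci with a mean FPKM of at least 1 and a value above 0 in at least 50% of the 57 samples, with Benjamini-Hochberg adjustment over all of them. Differences below are on that log2 scale, which understates the change of loci of low FPKM. The files hold no counts, so depth was only estimated from the steps between low values. That relative depth ran from 0.673 to 1.35 over the 57 libraries, with means of 1.08 ± 0.24 in Normal (SD, n = 6), 0.97 ± 0.18 in Mild (SD, n = 32), 1.03 ± 0.18 in Moderate (SD, n = 13) and 1.20 ± 0.065 in Severe (SD, n = 6). Only 65.6% of the low values lay within 5% of a whole step, so the estimate is a coarse one. One library stood apart, Moderate replicate 4 of July 2018, with a summed FPKM of 425820 against 718990 to 1214900 in the others. Its relative depth was 1.17, and 17002 of its loci were above 0. No pair of samples held identical values, and DDX3X, an X-linked gene used as a check on sex, averaged 167 ± 32.6 FPKM (SD) over 39 female samples against 122 ± 29.4 (SD) over 18 male samples.

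**Figure D1:**
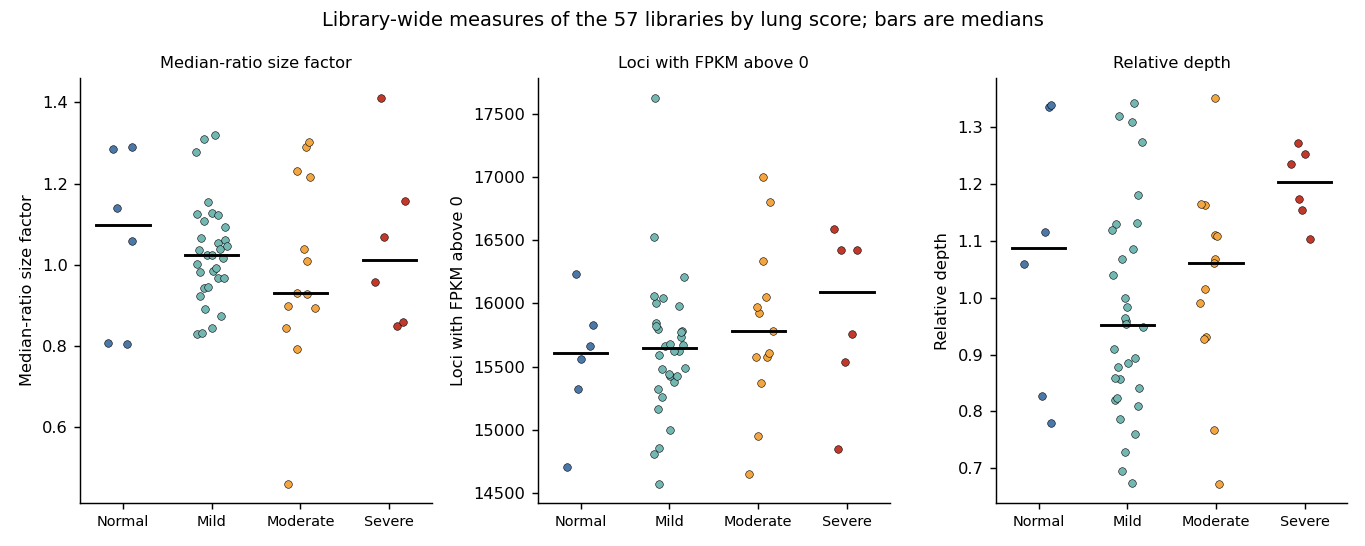
Size factor (left, each library's median ratio to the geometric mean library), number of loci with FPKM above 0 (middle) and relative depth (right, unitless) of the 57 libraries by lung score, with 1 point per library and bars at the medians. Moderate replicate 4 lies alone at a size factor of 0.46, and the 6 Severe libraries lie between 1.104 and 1.273 in relative depth.

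No locus differed between Moderate or Severe and Normal or Mild samples at an adjusted p of 0.05 (0 of 11565, 0%, lowest adjusted p = 0.64 by limma). The lowest unadjusted p belonged to a locus with no symbol paired to it, at positions 7 to 4129 of scaffold NW_017844414.1 (−0.55, SE 0.13, p = 0.00012). Among named genes of mean FPKM of at least 5, the lowest p was that of the chemokine gene CCL14, which was higher in Moderate or Severe samples, and next was the potassium channel gene KCNH3, which was lower. At an unadjusted p under 0.05 there were 877 loci, 7.58% of those tested, of which 165 (1.43%) were higher and 712 (6.16%) lower with a higher score. Lower values prevailed over all loci, with a median difference of −0.06 and a positive value at 32.3% of loci. With FPKM rescaled between libraries by median ratios to a geometric mean library, 1179 loci (10.2%) reached that p, the median became −0.01 and the split became 635 higher (5.49%) and 544 lower (4.7%), again with no locus past the threshold (lowest adjusted p = 0.12). Without Moderate replicate 4 the as-deposited values gave 460 higher and 380 lower.

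The 95% interval of the difference lay within 1 log2 unit of 0 for 98.4% of loci and within 0.5 for 77.2%, with a median half-width of 0.26. For Severe against Normal or Mild it lay within 1 log2 unit of 0 for 91.5% of loci, with a median half-width of 0.40.

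CCL14 encodes a chemokine that draws monocytes and other white cells in humans. Its locus spans positions 10793903 to 10797415 of scaffold NW_017843879.1 in the Tur_tru v1 assembly. It was among the more abundant transcripts of these samples, with a mean of 544 FPKM. Normal samples held 165 to 734 FPKM with a median of 338, and Mild samples 211 to 833 with a median of 419. Moderate samples held 194 to 1412 FPKM with a median of 723, and Severe samples 401 to 1812 with a median of 826. The medians thus stood in the order of the score while the ranges overlapped between all classes, and 14 of 19 Moderate or Severe samples lay above the Normal or Mild median. The difference was +0.71 (SE 0.19, 95% interval 0.33 to 1.09, p = 0.000416, adjusted p = 0.642 by limma), so it did not pass the test.

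CCL2, at positions 8721858 to 8723775 of scaffold NW_017842605.1, encodes the monocyte chemoattractant MCP-1. Its values ran from 17.4 to 72.4 FPKM in Normal (median 54.4) and from 8.52 to 226 in Mild (median 80.7). They ran from 34.5 to 603 in Moderate (median 119) and from 45.5 to 470 in Severe (median 139). Both chemokine genes therefore had medians that stood in score order, and neither passed the test. For CCL2 the difference was +0.88 (SE 0.31, p = 0.00552, adjusted p = 0.642 by limma), with 12 of 19 Moderate or Severe samples above the Normal or Mild median.

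Both chemokines were also read within the inflammation call. Among the 45 samples without that call, CCL2 had a median of 67.4 FPKM in 13 Moderate or Severe samples and 76.9 in 32 Normal or Mild samples, so the order of the medians was the opposite of that over all samples. Among the 12 samples with the call, the medians were 215 FPKM in 6 Moderate or Severe samples (101 to 603) and 46.8 in 6 Normal or Mild samples (8.52 to 113). The difference for CCL2 went from +0.88 to +0.29 when the samples with the call were left out. CCL14 kept its order in both strata, with medians of 624 against 419 FPKM without the call and 896 against 381 with it, and its difference went from +0.71 to +0.45. Over all loci the number at an unadjusted p under 0.05 went from 877 to 329. That fit held 45 samples in place of 57, with 13 Moderate or Severe samples in place of 19, so it also had less power. Samples with the call had the higher medians of both genes among Moderate or Severe samples and the lower ones among Normal or Mild samples. The part of the inflammation call in these differences was not tested.

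**Figure D2:**
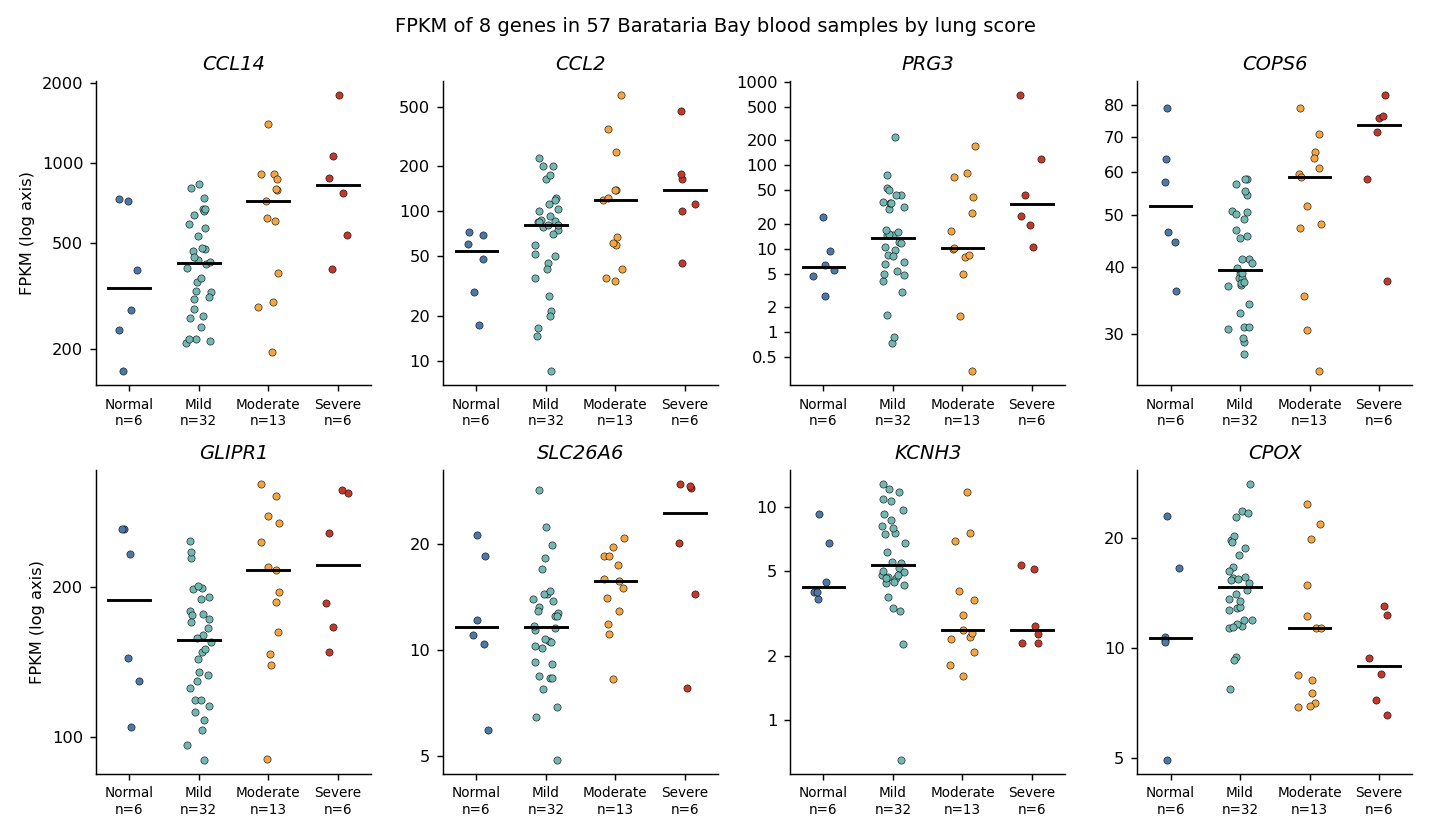
FPKM (log axis) of 8 genes in the 57 samples by lung score, with 1 point per sample and bars at the class medians. The medians of CCL14 and CCL2 stand in score order, that of KCNH3 is 2.65 FPKM in both Moderate and Severe against 5.33 in Mild, and the ranges of neighbouring classes overlap for each gene.

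KCNH3, at positions 27131849 to 27146429 of scaffold NW_017843160.1, encodes a voltage-gated potassium channel known mainly from brain. Its levels were low, at 3.73 to 9.32 FPKM in Normal (median 4.22) and 0.651 to 12.9 in Mild (median 5.33). Moderate samples held 1.61 to 11.8 FPKM and Severe samples 2.30 to 5.34, and both had a median of 2.65. Its medians thus showed a step between Mild and Moderate and no order within the pooled classes. The difference was −0.61 (SE 0.17, p = 0.000614, adjusted p = 0.642 by limma), and 5 of 19 Moderate or Severe samples lay above the Normal or Mild median.

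COPS6, a subunit of the COP9 signalosome that controls cullin ubiquitin ligases, showed another shape. Its median was 52 FPKM in Normal (36.1 to 79.3), 39.4 in Mild (27.5 to 58.3), 58.9 in Moderate (25.5 to 79.04) and 73.5 in Severe (37.7 to 83.7). Severe samples were the highest and Mild the lowest, with Normal between them. The difference was +0.37 (SE 0.11, p = 0.00143, adjusted p = 0.642 by limma), while Mild was 0.37 below Normal (p = 0.0327, adjusted p = 1.0 by limma). A comparison of the higher classes with Normal or Mild pooled is thus mainly one with Mild, which supplied 32 of the 38 samples.

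The other genes of lowest unadjusted p, which were chosen by that p and are given as values only, came from several functions. Of the 9 that were higher, SLC26A6, an anion exchanger, had a median of 11.6 FPKM in both Normal and Mild, 15.7 in Moderate and 24.5 in Severe (difference +0.44, SE 0.14). GLIPR1, a cysteine-rich secretory family protein of myeloid cells, was at 189, 157, 216 and 222 FPKM in the same order (+0.41, SE 0.12). GYG1 (+0.45), which primes glycogen, BASP1 (+0.40), a membrane-bound signalling protein, EIF4EBP1 (+0.40), a repressor of translation initiation, and DYNLRB1 (+0.39), a dynein light chain, made up the rest. With Mild, Moderate and Severe samples pooled against Normal, GYG1 (−0.0279), GLIPR1 (−0.0548), EIF4EBP1 (−0.21) and DYNLRB1 (−0.15) turned sign, as COPS6 did (−0.21). Of that pool 32 samples were Mild, and Moderate or Severe samples were not fitted against Normal alone. In the main contrast all genes of this paragraph carried an adjusted p of 0.642 by limma.

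On the lower side stood ENHO (−0.48), the precursor of the peptide adropin, ZC3H12D (−0.42), a zinc finger protein that limits inflammatory transcripts, and LSS (−0.41), lanosterol synthase of the cholesterol pathway. CPOX (−0.40) belongs to heme synthesis, and its median was 14.3 FPKM in Normal or Mild and 9.43 in Moderate or Severe. DIP2A (−0.36), the cullin CUL7 (−0.34), the transcription factor CREBZF (−0.34), the mitochondrial membrane protein GHITM (−0.31), the ankyrin repeat protein ANKRD46 (−0.29) and the splicing factor SRSF1 (−0.26) completed the 20. For ENHO, ZC3H12D and DIP2A the Moderate samples were further from Normal or Mild (−0.60, −0.58 and −0.44) than the Severe samples were (−0.24, −0.08 and −0.18), so these did not follow the score. None of these passed the test.

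**Figure D3:**
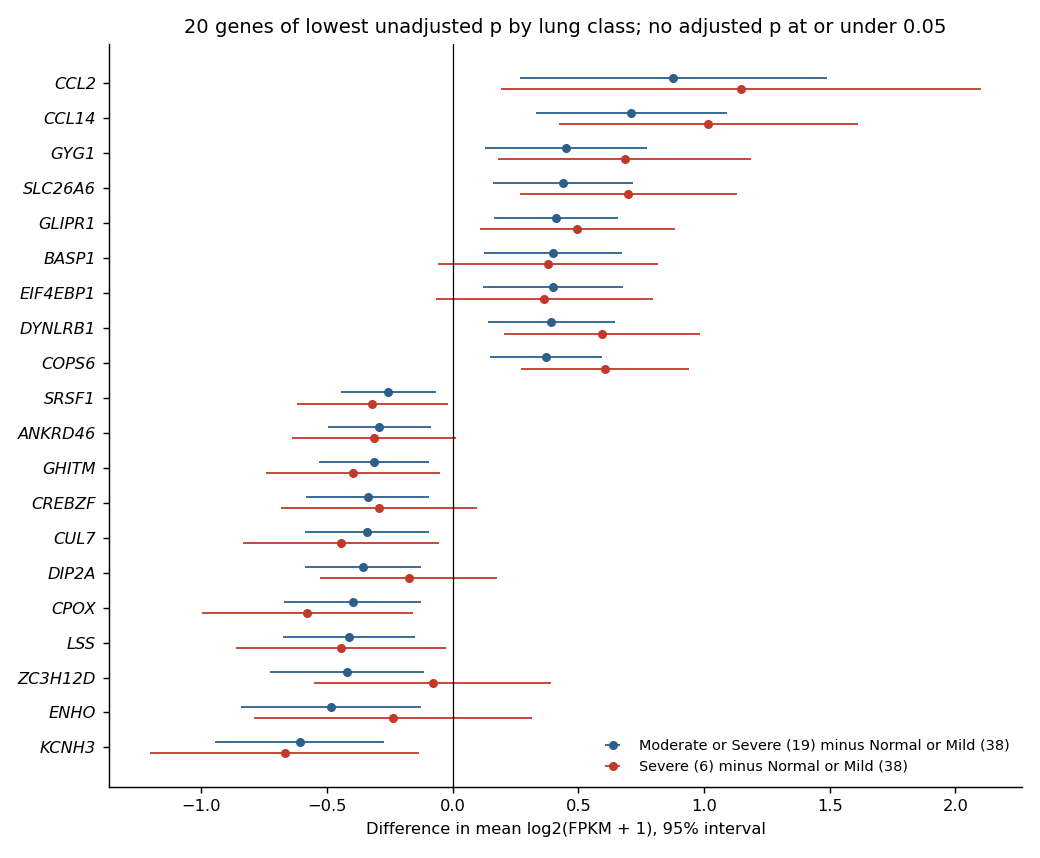
Difference in mean log2(FPKM + 1) with its 95% interval for the 20 genes of lowest unadjusted p, for Moderate or Severe (19 samples, blue) and Severe (6 samples, red) against the same 38 Normal or Mild samples. The genes were selected on the blue contrast, the controls are shared, and the red intervals are the wider; CCL2 and CCL14 lie furthest to the right.

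The trend over the 4 classes, a slope per step of the score, also called no locus (0 of 11565, 0%, lowest adjusted p = 0.55 by limma), and 532 loci (4.6%) had an unadjusted p under 0.05, 148 (1.28%) with a slope above 0 and 384 (3.32%) below. The split was 457 above and 398 below after median-ratio scaling and 305 and 274 without Moderate replicate 4. CCL14 had a slope of +0.44 per step (SE 0.11, p = 0.000219, adjusted p = 0.95 by limma) and CCL2 one of +0.57 (SE 0.18, adjusted p = 0.956). Slopes below 0 were found for HES4 (−0.37), a transcriptional repressor, FBRS (−0.29) and TBCD (−0.23), a tubulin folding cofactor, all with an adjusted p of 0.956 by limma. The locus of lowest p, with no symbol paired to it, lies at positions 1302285 to 1303428 of scaffold NW_017842858.1. Its medians stood in score order at 9.22, 7.21, 6.08 and 2.68 FPKM, and its slope was −0.51 per step (SE 0.12, adjusted p = 0.546 by limma).

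Severe samples alone, set against the same Normal or Mild samples, called no locus either (0 of 11565, 0%, lowest adjusted p = 0.0887 by limma). At an unadjusted p under 0.05, 259 loci (2.24%) were higher and 160 (1.38%) lower. That split turned to 143 higher and 394 lower with sex as a covariate and to 131 and 434 without Severe replicate 3, while the first sample of each animal gave 452 and 129. The lowest p belonged to an unnamed locus at positions 736183 to 739949 of scaffold NW_017842840.1. The Severe samples held 0.549, 1.48, 1.64, 36.9, 0.742 and 12.5 FPKM there. The highest value was 1.67 FPKM in Normal, 3.60 in Mild and 2.205 in Moderate. All 6 Severe samples were above 0, against 16 of 32 Mild samples, and 2 of the 6 lay above all other samples. Its difference of +1.71 (SE 0.35) passed the threshold when Severe replicate 1, 3 or 5 was left out (adjusted p = 0.0092, 0.0385 and 0.0156 by limma). No locus passed without replicate 2, 4 or 6, with a lowest adjusted p of 0.061, 0.46 and 0.41 by limma. None passed in the first sample of each animal (lowest adjusted p = 0.34 by limma) or with animal as a random block. Severe replicates 4 and 5, at 36.9 and 0.742 FPKM, came from the same animal.

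Among named genes, COPS6 had the lowest p in the Severe contrast (+0.61, SE 0.17, p = 0.000571). CCL14 was 1.02 higher (SE 0.30), SLC26A6 0.70 higher (SE 0.22) and DYNLRB1 0.59 higher (SE 0.19). PFN1, which binds actin monomers, was 0.59 higher (SE 0.20), with medians of 2962, 2828, 3708 and 4546 FPKM in score order and all 6 Severe samples above the Normal or Mild median. GPR84, a receptor for medium-chain fatty acids on myeloid cells, was 0.82 higher, and the glycolytic enzyme GAPDH 0.54 and DYDC1 0.68 higher, also with 6 of 6 Severe samples above that median. GPR84 in Severe replicate 1 was at 139 FPKM, and its difference was 0.57 without that sample. Adjusted p was 0.998 by limma for each of these genes.

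PRG3, a granule protein of eosinophils, had the widest spread of the named genes. Severe samples held 10.4 to 704 FPKM (median 34.4), Moderate 0.335 to 170 (median 10.0), Mild 0.729 to 218 (median 13.4) and Normal 2.71 to 23.7 (median 5.96). Of the 6 Severe samples 5 lay above the Normal or Mild median, and the Moderate median was below the Mild one. Severe minus Normal or Mild was +1.997 (SE 0.71, p = 0.00676, adjusted p = 0.998 by limma), and +1.25 without Severe replicate 2, which held 704 FPKM. Over Moderate or Severe together it was +0.81 (SE 0.47, p = 0.0922, adjusted p = 0.701 by limma). The study reported PRG3 as higher in BAR animals born before the spill. Such animals gave all 6 Severe samples and 28 of the 38 Normal or Mild samples. The part of birth cohort in the PRG3 differences was not tested.

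The classes next to each other in the score were compared too. Moderate against Normal or Mild called 0 loci (0%), with 803 (6.94%) at an unadjusted p under 0.05, 55 (0.476%) higher and 748 (6.47%) lower. Severe against Moderate called 0 (0%), with 284 (2.46%) higher and 38 (0.329%) lower at that p, and PRG3 (+1.74, p = 0.0333) and DYDC1 (+0.58, p = 0.029) were among the higher. Mild against Normal called 0 (0%), with 96 (0.83%) higher and 203 (1.76%) lower, including COPS6 and IL1B, the inflammatory cytokine interleukin 1β (−0.59, p = 0.0214, adjusted p = 1.0 by limma). These comparisons share samples with each other and with the main one. The all-locus median was −0.09 for Moderate and −0.01 for Severe, each against Normal or Mild.

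Gene lists were read by the number of members with a positive difference and by their median, beside the all-locus values of 32.3% and −0.06. Symbols were at hand for 3142 of the 11565 tested loci, from tables of loci that the study's own comparisons selected, so each list is only partly covered and its members are a selected subset. No member of any list passed the test. The eosinophil and basophil list had 9 of 10 members above 0 and a median of +0.23. IL3RA, the receptor for interleukin 3, was its member of lowest p, with medians of 17.6 FPKM in Normal or Mild and 19.2 in Moderate or Severe, and 15 of 19 higher-score samples above the former (+0.42, SE 0.16, p = 0.0116).

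The eicosanoid list, enzymes and receptors of leukotriene and prostaglandin synthesis, had 12 of 13 members above 0 (median +0.13). ALOX5, the 5-lipoxygenase that starts leukotriene synthesis, had medians of 76.2, 91.6, 114 and 109 FPKM from Normal to Severe. ALOX5AP, which presents arachidonic acid to it, stood at 688, 840, 952 and 1080 FPKM. PTGS1, cyclooxygenase 1, stood at 115, 160, 185 and 186 FPKM. These 3 genes thus had their lowest median in Normal samples, with differences of +0.32, +0.32 and +0.26 and unadjusted p of 0.0951, 0.0621 and 0.127.

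Other lists of myeloid and platelet function also had medians above 0, but in several of them Mild samples were the lowest and Normal samples were not. The NADPH oxidase list, the enzyme complex of the neutrophil respiratory burst, had 5 of 5 members above 0 (median +0.11). Within it, NCF1 had a median of 530 FPKM in Normal or Mild and 724 in Moderate or Severe (+0.33, p = 0.0313) and NCF4 86.3 and 116 FPKM (+0.32, p = 0.018). Severe replicate 1 held the highest value of both in that class, 2024 FPKM for NCF1 and 267 for NCF4. The neutrophil list had 13 of 15 above 0 (median +0.08), with FCGR3A, the low-affinity IgG receptor CD16, at +0.24 (p = 0.129). The mean log2 level of the neutrophil list was 6.86 in Normal, 6.54 in Mild, 6.65 in Moderate and 6.79 in Severe, so it was highest in Normal. With Mild, Moderate and Severe samples pooled against Normal, FCGR3A, NCF1 and NCF4 turned to −0.22, −0.13 and −0.15. In that pool 32 samples were Mild. The type 2 and JAK/STAT list had 16 of 21 (median +0.09) and was likewise highest in Normal (5.82, against 5.66 in Mild).

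The platelet list had 15 of 17 members above 0 (median +0.13), of which 3 had an unadjusted p under 0.05, beside 1.43% of all loci in that direction. F5, coagulation factor V, had medians of 8.22 and 12.7 FPKM (+0.45, p = 0.0132). MYL9, a myosin light chain of platelets and smooth muscle, had 4.30 and 5.77 FPKM (+0.40, p = 0.0294). The actin and myosin list, 32 of 44 above 0 (median +0.08), included PFN1 and ARPC4, a subunit of the Arp2/3 complex that branches actin filaments (65.7 and 84.7 FPKM, +0.29, p = 0.0133). After median-ratio scaling 38 of its 44 members lay above 0 and 17 had an unadjusted p under 0.05, against 5.49% of all loci in that direction.

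The lymphocyte and red cell lists lay on the lower side. The B cell list had 2 of 14 members above 0 (median −0.22) and 4 at an unadjusted p under 0.05, all lower, beside 6.16% of all loci in that direction. After median-ratio scaling 1 was lower and 1 higher at that p. CR2, the complement receptor of B cells, had medians of 7.35 FPKM in Normal or Mild and 4.82 in Moderate or Severe (−0.50, p = 0.0341), and its locus overlaps a neighbouring locus, so its reads may be shared. HLA-DOB, which tunes antigen loading in B cells, had 37.9 and 24.7 FPKM (−0.45, p = 0.0162), and CIITA, the master regulator of MHC class II genes, 68.4 and 52.01 FPKM (−0.33, p = 0.017). The Moderate samples lay lower than the Severe ones, with a list median of −0.31 against −0.07.

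The T cell list had 3 of 13 members above 0 (median −0.15). The cytotoxic and natural killer list had a median of −0.28 in Moderate and +0.41 in Severe against Normal or Mild, the widest gap between these classes of any list. Of its members, SH2D1B, an adaptor of natural killer cell receptors, was 0.29 higher in Moderate or Severe (p = 0.0272) and CD226, an activating receptor of natural killer and T cells, was 0.34 lower (p = 0.0239).

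The heme synthesis and red cell list had 6 of 39 members above 0 (median −0.26), and its median was −0.40 in Severe and −0.19 in Moderate. At an unadjusted p under 0.05, 2 members were lower and 1 higher, beside 6.16% and 1.43% of all loci. After median-ratio scaling 1 was lower and 2 higher at that p. The mean log2 level of the list was 5.64 in Normal, 5.83 in Mild, 5.61 in Moderate and 5.47 in Severe, so it did not stand in score order. Besides CPOX, FECH, which inserts iron into heme, had medians of 8.77 and 6.42 FPKM (−0.36, p = 0.0282), and none of the 6 Severe samples lay above the Normal or Mild median for either gene. A clinical call of anemia applied to 1 of 19 Moderate or Severe and 5 of 38 Normal or Mild samples.

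**Figure D4:**
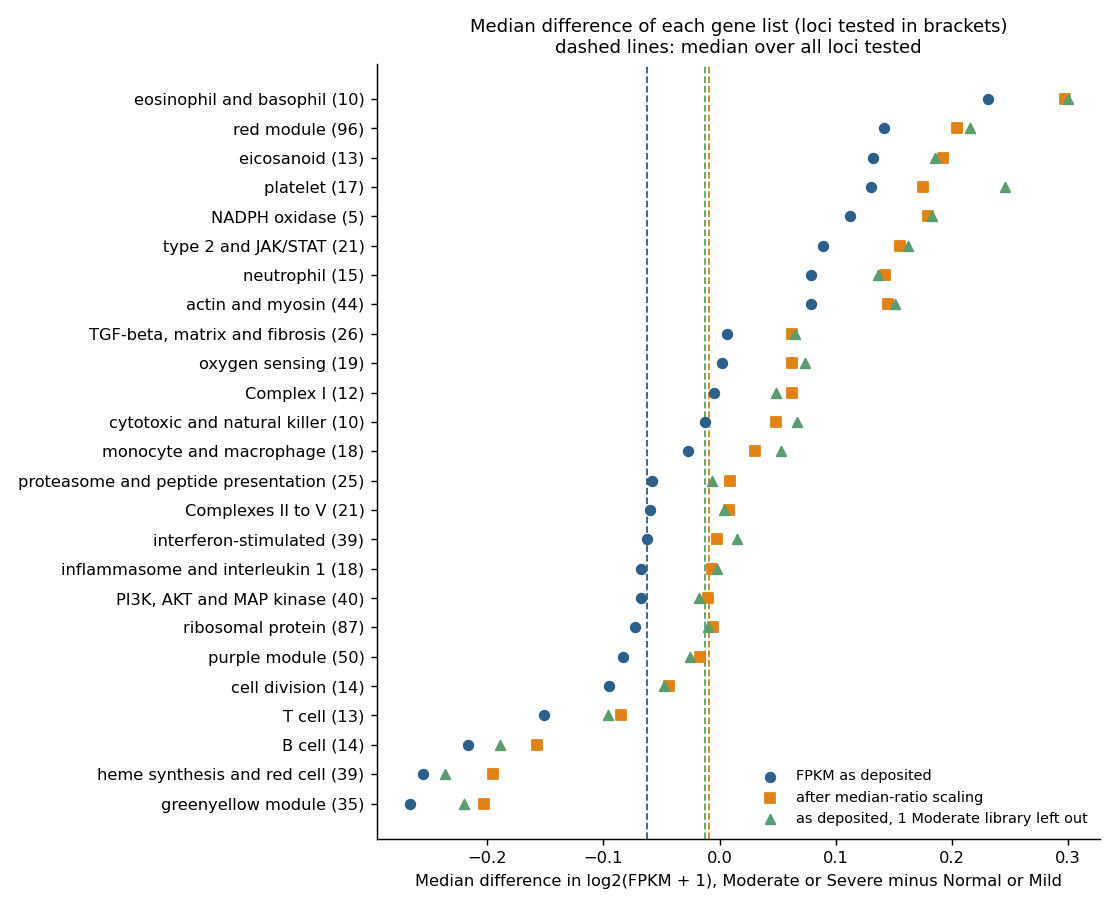
Median difference in log2(FPKM + 1), Moderate or Severe minus Normal or Mild, of each gene list with at least 5 tested loci (number of loci in brackets), for FPKM as deposited (circles), after median-ratio scaling (squares) and without Moderate replicate 4 (triangles). Dashed lines mark the median over all loci, and the eosinophil and basophil list lies highest and the greenyellow module lowest among deposited values.

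Lists tied to interferon or inflammasomes lay near the all-locus median, and the fibrosis list lay somewhat above it. The list of transforming growth factor β, matrix and fibrosis genes had a median of +0.01 with 14 of 26 above 0, and TGFB1 itself was at +0.16 (p = 0.217). After median-ratio scaling the fibrosis list had a median of +0.06, beside −0.01 over all loci. At an unadjusted p under 0.05, 6 of its members were then higher and 2 lower, beside 5.49% and 4.7% of all loci. The list of PI3K, AKT and MAP kinase genes had a median of −0.07 with 10 of 40 above 0. AKT1 and AKT2, kinases of growth and survival, were at +0.08 (95% interval −0.15 to 0.31) and −0.02 (−0.24 to 0.21), so a difference over 0.31 in either direction lies outside both intervals. The interferon-stimulated list had a median of −0.06 with 9 of 39 above 0, and the inflammasome and interleukin 1 list −0.07 with 4 of 18. NLRP3, a sensor that assembles an inflammasome, was at −0.21 (p = 0.138) and IL1B at −0.01 (p = 0.931), a value that turned to +0.05 after scaling.

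Medians of the remaining lists lay between −0.10 and 0.00. They were −0.07 for 87 ribosomal protein loci of 74 symbols, some of which may be copies that share reads, 0.00 for Complex I, −0.06 for Complexes II to V, −0.06 for the proteasome list, −0.03 for monocytes and macrophages, −0.10 for cell division and 0.00 for oxygen sensing. The cell division list had 1 of 14 members above 0, and its median in Moderate was −0.22, with 3 members lower at an unadjusted p under 0.05 beside 6.47% of all loci. After median-ratio scaling 5 of the 14 lay above 0 (median −0.04), beside 47.3% of all loci. Rescaling by median ratios moved the all-locus median to −0.01. It turned the medians of the monocyte, cytotoxic, Complex I, Complexes II to V and proteasome lists above 0, to between 0.01 and 0.06. After quantile normalization the cytotoxic median was +0.06, while those of the other lists in that sentence lay between −0.04 and −0.01. Of the lung epithelium list, 1 of 13 symbols was paired with a tested locus, the basal keratin KRT5, at a mean of 12.3 FPKM (−0.15, p = 0.492). The study itself built coexpression modules on these samples, so they are not independent of them. The red module had 87 of 96 members above 0 (median +0.14), the greenyellow module 0 of 35 (median −0.27) and the purple module 9 of 50 (median −0.08). After median-ratio scaling these counts were 95, 0 and 21. The study reported the red and purple modules as higher, and the greenyellow module as lower, in animals born before the spill. The part of birth cohort in these module values was not tested.

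The class difference was then taken within each campaign. CCL14 was higher in Moderate or Severe in all 5 campaigns, by 1.53 in June 2013, 0.18 in June 2014, 0.50 in June 2017, 1.02 in September 2017 and 0.17 in July 2018. GLIPR1 and SLC26A6 were also higher in all 5, and KCNH3 was lower in all 5, from −0.89 in June 2013 to −0.29 in June 2014. CCL2 was higher in 4 campaigns and at −0.03 in June 2014, and COPS6 was higher in 4 and at −0.04 in June 2017. PRG3 was higher by 2.42 in June 2014, 1.78 in June 2017 and 1.503 in September 2017 but at −0.20 in June 2013 and −0.33 in July 2018. These genes were picked from the pooled contrast of the same samples, so an equal sign within campaigns is a description of them.

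The median over all loci itself changed side between campaigns, at −0.06, +0.27, −0.04, +0.13 and −0.29 in the order of the dates. A test of the difference of the class effect between campaigns called 119 loci (1.03%), and 1969 (17%) had an unadjusted p under 0.05. All 119 were higher in the Moderate or Severe samples of June 2014 and none was higher in those of July 2018, with medians of +0.93 and −0.79. After median-ratio scaling 0 loci differed between campaigns (1029 at an unadjusted p under 0.05 by limma, lowest adjusted p = 0.18), and 30 did without Moderate replicate 4. June 2014 had 2 Moderate or Severe samples, and 0 or 1 locus was called when either was left out. Within June 2014 alone 5 loci passed by limma, and within each of the other campaigns none did. A test of the difference between sexes called 0 loci (0%), with 711 (6.15%) at an unadjusted p under 0.05 by limma.

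**Figure D5:**
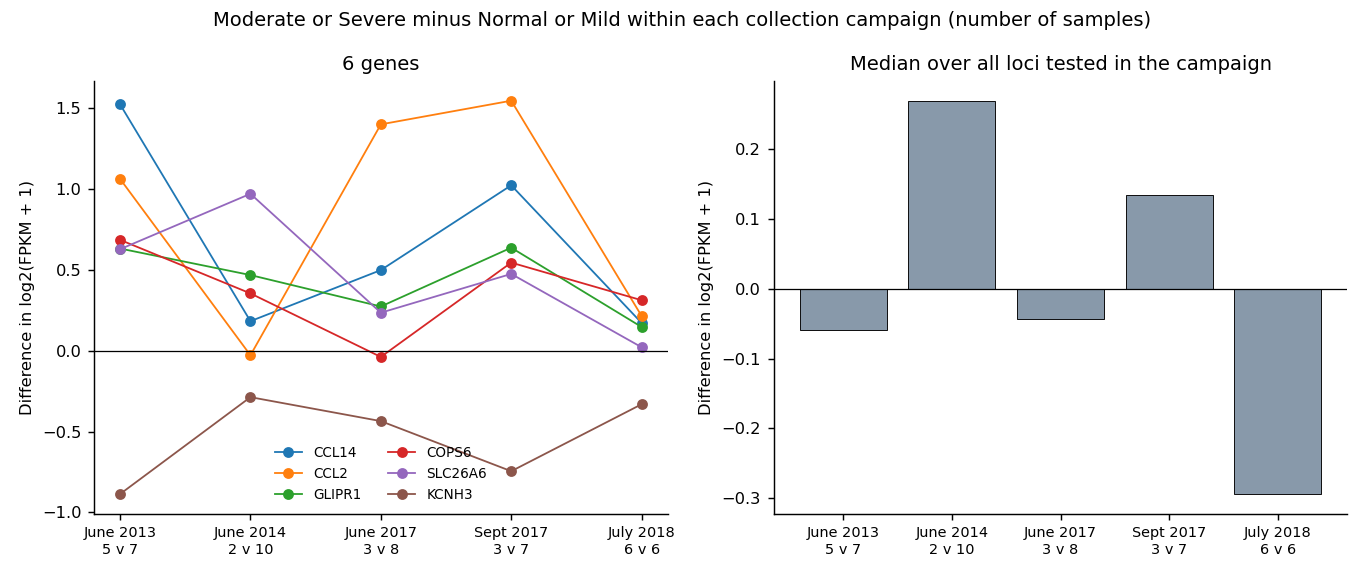
Difference in log2(FPKM + 1), Moderate or Severe minus Normal or Mild, within each collection campaign, for 6 genes (left) and as the median over all loci (right), with numbers of samples under each date as Moderate or Severe v Normal or Mild. The CCL14, GLIPR1 and SLC26A6 points lie above 0 and those of KCNH3 below 0 in all 5 campaigns, while the all-locus median runs from −0.29 to +0.27.

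Of the 5 animals bled on 2 occasions, 3 changed between the pooled classes. One went from Moderate in June 2013 to Mild in June 2014, with CCL14 at 913 and 568 FPKM and COPS6 at 65.6 and 50.6. Another went from Severe in June 2014 to Mild in September 2017, with CCL14 at 1070 and 640 FPKM and COPS6 at 83.7 and 58.3. The last went from Mild in September 2017 to Moderate in July 2018, with CCL14 at 533 and 623 FPKM and COPS6 at 46.8 and 47.2. In each of the 3 the occasion with the higher score had the higher CCL14 and COPS6 value, while CCL2 did so in 1, with 50.7 and 60.0 FPKM in the last animal. An animal that was Mild on both occasions held 313 and 368 FPKM of CCL14, and one that was Severe on both held 401 and 539. Both genes, CCL14 and COPS6, were picked from a contrast that holds these same samples. The first of the 3 animals also had the inflammation and anemia calls in June 2013 and neither in June 2014. The 3 pairs are too few for a test, and the within-animal correlation estimated over all loci was 0.38.

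Of the values of each library as a whole that were tested, none passed between the pooled classes. Relative depth was not tested, and the 6 Severe libraries, at 1.104 to 1.273, lay in the upper part of its range. Moderate or Severe and Normal or Mild samples held 20.0% and 20.0% of their summed FPKM in the 10 most abundant loci, and a mean of 15852 and 15631 loci above 0 (permutation p = 0.178 with 100000 resamples, two-sided). Of 6 such measures, including summed FPKM and the first principal components of log2(FPKM + 1), none had an adjusted permutation p below 0.534.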

How the data were processed

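Blood in PAXgene tubes was made into strand-specific RNA libraries and sequenced as paired ends by the study. Per the labels and the study's methods, the authors trimmed reads with Trimmomatic 0.33, aligned them to Tur_tru v1 with TopHat2 2.1.1 and Bowtie2, and deposited FPKM per locus from Cufflinks 2.2.1. They masked several globin genes. The study compared groups with Cuffdiff, which needs reads. Here limma 3.58.1 in R 4.3.3 (mean-variance trend, two-sided) was fitted to log2(FPKM + 1), with one fit of 4 class means for single classes, and loci with mean FPKM under 1 or at 0 in over 50% of samples were left out. Values of each library as a whole were compared by two-sided permutation tests. Fits were tested on simulated data. Lung scores, ages, sexes, pregnancy and clinical calls came from the study's sample table. The members, lists and tests were chosen with earlier results of these data known. Symbols came from 3144 locus and symbol pairs in the study's supplementary tables.

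Named genes were the 20 with the lowest unadjusted p and mean FPKM of at least 5 in the main contrast, the 10 in the Severe contrast and the trend, the 2 of lowest p in each list, and 11 genes tied to lung disease, inflammation or sex. Of these, 51 are named in the text, besides unnamed loci chosen after their values were seen. Samples of a class are separate blood draws. Repeat draws of an animal were treated as separate in the comparisons above and as a random block in an alternative. The precision of a value is limited by the number of samples and by depth, which FPKM do not give. Alternatives covered the pseudocount (0.1), the low-value filter, scaling, campaign, sex, animal, inflammation, the library of lowest summed FPKM and each single sample.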

Additional observations from a re-analysis of the deposited data

Results flagged for a closer look

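In classes of 6 samples (Normal and Severe), the highest or lowest value was compared with its nearest neighbour by Dixon's criterion. This was done for each named gene and for 6 library-wide measures. For normally distributed values chance meets the criterion in about 1 of 20 groups. It was applied to FPKM without logs, for which that rate need not hold. The criterion was met in 15 of 114 groups, each time by the highest value of a gene. That share is above 1 in 20, but the chance rate for these values is not known. Whether the count exceeds chance was not tested. Many of the genes are correlated. Severe replicate 1 was the highest of its class for 7 of the genes. It held 683 FPKM of SH2D1B (next 363), 1231 of IL1B (next 352), 355 of AKT1 (next 185), 139 of GPR84 (next 59.3), 45.9 of ZC3H12D (next 32.2), 267 of NCF4 (next 130) and 2024 of NCF1 (next 778). Other Severe samples stood apart for CCL2 (470 FPKM in replicate 6, next 178), PRG3 (704 in replicate 2, next 119) and LSS (10.7 in replicate 3, next 7.21). Normal replicate 1 stood apart for GHITM (354 FPKM, next 217), FECH (17.6, next 8.80) and PRG3 (23.7, next 9.34). Normal replicate 2 did so for KRT5 (41.3, next 12.7) and Normal replicate 5 for DYNLRB1 (113, next 84.4).

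The class effect differed between campaigns at 119 loci by limma, among them CD226 alone of the named genes (adjusted p = 0.0365). Its class difference was +0.66 in June 2014, +0.28 in September 2017, −0.16 in June 2013, −0.41 in June 2017 and −1.21 in July 2018. No locus differed after median-ratio scaling.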

How the results depend on the processing

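Of 3672 values of named genes under alternatives, 3609 kept their direction and their side of the threshold and 63 reversed. With Normal alone as the reference (Mild, Moderate or Severe minus Normal) the log2 difference reversed to −0.21 for SH2D1B, −0.22 for FCGR3A, −0.0545 for DYDC1, −0.10 for GAPDH, −0.0131 for PFN1, −0.21 for COPS6, −0.15 for AKT1, −0.0279 for GYG1, −0.0469 for ARPC4, −0.21 for GPR84, −0.15 for DYNLRB1, −0.36 for MYL9, −0.0548 for GLIPR1, −0.15 for NCF4, −0.21 for EIF4EBP1 and −0.13 for NCF1, and to +0.11 for HLA-DOB, +0.17 for ENHO, +0.002 for FECH, +0.0019 for CREBZF, +0.17 for CPOX, +0.17 for DIP2A and +0.0501 for DDX3X. Near-0 values turned as well. IL1B was at +0.0531 after median-ratio scaling, +0.0718 in females only, +0.0523 without Moderate replicate 4, +0.0236 with scaling, campaign and sex, and +0.0592 with scaling and without that library, and ran from −0.113 to +0.0523 with each sample left out. AKT2 was at +0.0486 after median-ratio scaling, +0.0244 after quantile normalization, +0.011 with animal as a random block, +0.0455 without that library, +0.0433 with scaling, campaign and sex and +0.052 with scaling and without that library (−0.0573 to +0.0455 with each sample left out). DDX3X was at +0.0404 after median-ratio scaling, +0.0251 with campaign as a covariate, +0.0082 in first samples, +0.0504 without that library, +0.0192 with scaling, campaign and sex and +0.0572 with scaling and without that library (−0.0644 to +0.0504 with each sample left out). KRT5 was at +0.0871 without the inflammation call. The first principal component reversed from −5.36 to +6.77 after median-ratio scaling and +6.71 after quantile normalization. The cause of these reversals was not tested.

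The count of 0 calls in Moderate or Severe against Normal or Mild held under every alternative but within June 2014 (5 loci), and with each of 57 samples left out it stayed at 0. Loci at an unadjusted p under 0.05 numbered 562 with campaign as a covariate and 329 without the inflammation call. They numbered 278 for Mild, Moderate or Severe minus Normal. Within campaigns there were 1900 in June 2014 (median difference +0.27), 294 in June 2017 and 1416 in July 2018 (median −0.29). For the trend they numbered 986 with no filter, 855 after median-ratio scaling, 818 after quantile normalization, 1100 with sex as a covariate and 352 without the inflammation call. For Severe they numbered 954 with no filter, 827 after median-ratio scaling and 805 after quantile normalization. Severe called 12 loci with no filter on low values, of which 11 had a mean FPKM of under 0.36, and 0 to 2 with each Severe sample left out (1 without Severe replicate 1, 2 without replicate 3, 1 without replicate 5). The difference between campaigns was called at 0 loci after median-ratio scaling, 0 after quantile normalization, 30 without Moderate replicate 4, 462 without June 2013, 0 without June 2014, 24 without September 2017, 0 without July 2018, and 0 or 1 without Moderate replicate 5 or Severe replicate 3.

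Replicate numbers only name samples and pair none. Of animals, 3 were bled in both pooled classes, and with animal as a random block 0 loci passed (788 at an unadjusted p under 0.05 by limma). Severity is tied to sex and birth cohort in the Severe class, which held only females born before the spill. The score is from an examination and not from tissue. Depth could not be taken from FPKM, so low loci such as the 12 above rest on unknown counts. Alternatives chosen after seeing the data were scaling combined with covariates or with leaving out that library, and those of the difference between campaigns.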
